A study of Mus musculus with 6 samples.

Results

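The late-numbered miRNAs of the mouse, those whose symbol is Mir followed by 1000 or a higher number, were followed here through small RNA libraries of bone marrow cells. A feature was included if a gene of GENCODE release M21 (build GRCm38) with the same start and end was of type miRNA and carried such a name and lay outside the Dlk1-Gtl2 imprinted locus of chromosome 12. This gave 166 of the 1823 features that had a read in any library. GENCODE annotates 639 such miRNAs outside the locus, so 473 were not listed in any library.

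The series compares small non-coding RNAs of KO and WT mice, and its design text names lineage-negative cells, the bone marrow fraction depleted of mature blood cells. The 3 KO libraries come from mice with the genotype Mat KO, here read as a mutation at the Dlk1-Gtl2 locus inherited from the mother, and the 3 WT libraries from wildtype mice. The sources used here do not give the deleted part of the locus, the strain or the age of the mice, nor do they say whether the 3 libraries of a genotype came from separate animals, so the spread behind the p-values may be technical. PCR products of the length of a snoRNA plus adaptors were cut from a gel before sequencing.

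miRNAs are short RNAs cut from hairpin precursors, first by Drosha in the nucleus and then by Dicer in the cytoplasm, and they lower the output of mRNAs that pair with their seed, bases 2 to 8 of the mature strand. The number in a miRNA's name follows the order of registration, so high numbers belong to miRNAs found late, mostly by sequencing. Some of these do not come from a classical miRNA gene. Some are cut from small nucleolar RNAs (snoRNAs, guides of rRNA modification) or small Cajal body RNAs (scaRNAs, guides of the modification of spliceosomal RNAs), and others, called mirtrons, are whole short introns released by splicing instead of by Drosha. Inserts of snoRNA length are longer than a mature miRNA, so the values below are read as reads of the hairpin's region and not as levels of mature miRNA. The lengths of the counted reads were not examined.

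The snoRNAs of the mutated locus check the labels: the 10 listed ones had 3, 2 and 2 reads in KO replicates 1 to 3, against 87, 106 and 94 reads in WT replicates 1 to 3. Total counts were 47299957 to 51837721 in KO libraries and 45398303 to 53299322 in WT libraries. Levels are in CPM, which divides a count by the total of its library, and levels of different RNAs are compared per kilobase of feature (CPM per kilobase). Counting intervals cover counting error only. All 12 blood miRNA markers examined had reads, between 74 and 17351 each over the 6 libraries. Stem and progenitor markers had 17351 (Mir10a), 1936 (Mir126a), 372 (Mir99b), 140 (Mir196b) and 74 (Mir125a). Markers of mature lineages had reads too: myeloid Mir223 4648 and Mir142 530, B lymphoid Mir150 1059, and megakaryocytic Mir10b 163. Erythroid Mir451a, Mir486 and Mir144 had 845, 242 and 90. Of 17 markers of other tissues 13 had reads. The highest was Mir143, a marker of stromal cells, with 352 reads, above the blood markers Mir486, Mir10b, Mir196b, Mir144 and Mir125a. The muscle miRNAs Mir1a-1 and Mir1a-2 had 286 and 285, the neural Mir9-1, Mir9-2 and Mir9-3 had 66, 64 and 70, and the epithelial Mir200c had 56. The neural Mir124a-1 and Mir124a-2 and the epithelial Mir141 and Mir375 had none. In bulk samples such as these, fewer cells of a type and less RNA per cell cannot be told apart.

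Of the late-numbered miRNAs 10 overlap an annotated small RNA, and the sequences of the abundant cases show how the miRNA sits inside it. The 5 RNAs are printed 5′ to 3′ as DNA from GENCODE, with the mature miRNAs that RefSeq gives for the hairpin (GRCm38.p6) in capitals.
Snora34, chromosome 15, 98519716 to 98519853, minus strand, with miR-1291: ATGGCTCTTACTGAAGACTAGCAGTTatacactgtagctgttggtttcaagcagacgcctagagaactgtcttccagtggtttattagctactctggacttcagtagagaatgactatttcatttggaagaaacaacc
The scaRNA named Mir1839, chromosome 7, 81529855 to 81529981, plus strand, with miR-1839-5p: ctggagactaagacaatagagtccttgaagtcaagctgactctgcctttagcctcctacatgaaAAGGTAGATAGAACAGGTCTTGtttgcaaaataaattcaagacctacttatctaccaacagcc
Scarna3a, chromosome 1, 159340283 to 159340422, plus strand, with both arms of miR-1843b: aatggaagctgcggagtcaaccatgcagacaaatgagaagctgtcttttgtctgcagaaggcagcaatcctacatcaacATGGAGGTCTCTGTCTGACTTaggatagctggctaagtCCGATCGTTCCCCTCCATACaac
Scarna3b, chromosome 12, 80391613 to 80391751, minus strand, with both arms of miR-1843a: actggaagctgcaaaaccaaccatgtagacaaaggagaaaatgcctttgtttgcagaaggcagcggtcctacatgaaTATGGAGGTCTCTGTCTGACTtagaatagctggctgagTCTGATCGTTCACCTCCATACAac
Snord33, chromosome 7, 45126864 to 45126947, minus strand, with miR-5121: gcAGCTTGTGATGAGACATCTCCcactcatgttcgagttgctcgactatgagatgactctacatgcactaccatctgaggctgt

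The hairpin lay on the 3′ side of the overlapped RNA in 8 of the 10 cases, and all 10 pairs are on the same strand. In Scarna3a the Mir1843b hairpin begins at base 76 of 140 and runs 1 nt past the annotated end. The Mir1839 hairpin begins at base 62 of 127 and runs 7 nt past the end. Scarna13, the longest of the overlapped RNAs at 275 nt, carries the Mir3069 hairpin from base 209. H/ACA RNAs fold into a pair of hairpins, of which the 3′ one is followed by an ACA box close to the end of the RNA. The letters ACA were found in the last 6 bases of 8 of the 10 overlapped RNAs, and not in Snord33 or in the snoRNA named Mir1949. Of the 443 listed snoRNA features 42.7% had them. The sets are unlike, as scaRNAs are among the 10 and absent from the listed features, and the 443 were not restricted to H/ACA RNAs.

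Mir1291 and Mir5121 lie on the 5′ side instead. The Mir1291 hairpin starts 25 nt before Snora34 and shares 92 nt with it, and the mature miR-1291 is exactly bases 1 to 26 of Snora34. Mir5121 starts 44 nt before Snord33, a C/D box RNA hosted by the ribosomal protein gene Rpl13a, and shares 30 nt with it. Mature miR-5121 covers bases 3 to 23 of Snord33 and holds the letters TGATGA, the core of the C box, which 42.4% of the listed snoRNA features contain somewhere.

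**Figure D1:**
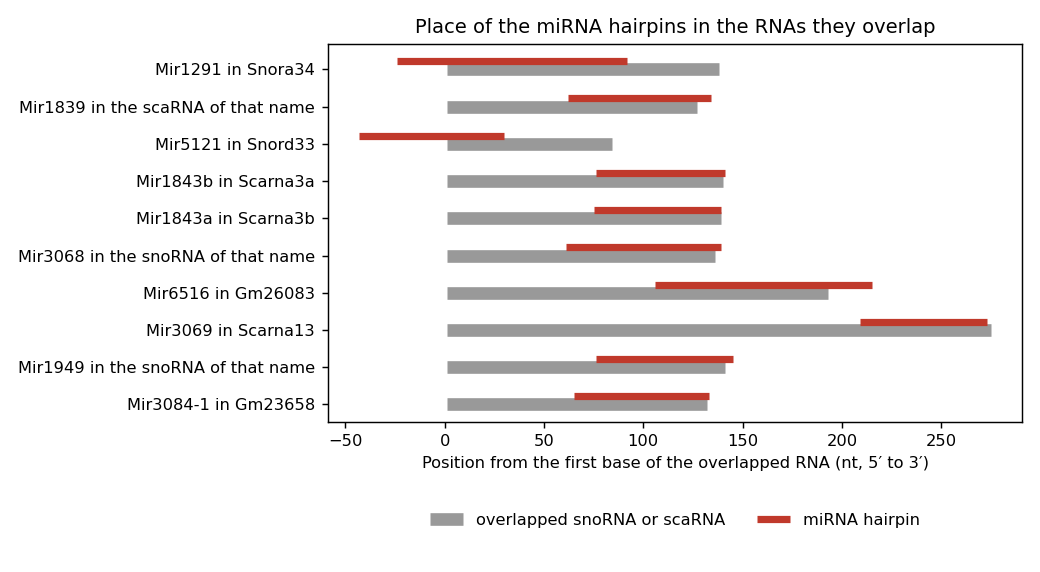
The 10 miRNA hairpins (red) drawn to scale along the snoRNA or scaRNA they overlap (grey), with position in nt from the RNA's first base on the horizontal axis. Of the 10 hairpins 8 sit on the 3′ side, while those of Mir1291 and Mir5121 start 25 and 44 nt before the RNA.

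Reads of the late-numbered miRNAs were few and belonged mostly to a single feature. Together they held 3184, 4316 and 3881 reads of the KO libraries, against 4552, 3890 and 3883 reads of the WT libraries, given here and below as replicates 1, 2 and 3. This was 0.00657% to 0.00833% of a KO library and 0.00765% to 0.00857% of a WT library. Mir1291 alone held 73.4% of these reads, and the 5 most abundant members held 87.3%. The median member had 3 reads over all 6 libraries, 55 had a single read, and 62 were seen in only 1 library. Reads in all 6 libraries were found for 31. miRNAs with lower numbers, outside the same locus, had a median of 39.5 reads, and 276 of 463 annotated ones were listed (59.6%, against 26.0% of the late-numbered ones).

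Nearly all members lie in a host gene: 140 on the same strand as a host, which is protein-coding for 132, 9 only opposite a host, and 17 in no gene. Of the 84 in plain introns 77 have a host on their strand, and no gene hosts more than 1 of these 84.

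The order of levels per kilobase was led by Mir1291, which had 499 ± 47 CPM per kilobase (SD over the 6 libraries), far from the next. Mir1839 with 46.2 ± 15.2 and Mir3473f with 35.7 ± 12.5 CPM per kilobase followed, and these levels did not differ beyond their SDs. Then came Mir5121 with 15.5 ± 4.1, Mir1198 with 14.8 ± 6.5, Mir1843b with 12.9 ± 2.1, Mir1981 with 10.97 ± 3.03, Mir3074-2 with 10.3 ± 4.9, Mir3074-1 with 10.02 ± 6.0, Mir1843a with 9.77 ± 2.60 and Mir3107 with 9.13 ± 3.55 CPM per kilobase. Mir5121 lay below Mir3473f by more than their summed SDs, and none of these 8 lay apart from the next of the 8 by more than the SDs.

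**Figure D2:**
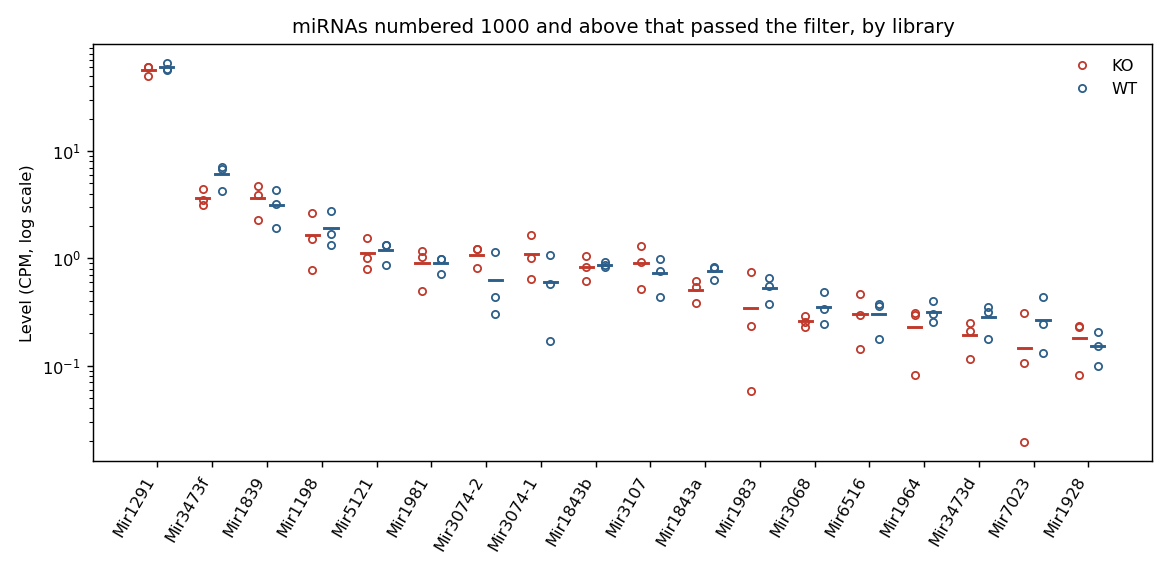
Level in CPM (log scale) of the 18 late-numbered miRNAs that passed the expression filter (the edgeR default with a minimum count of 10), 1 circle per library, KO (red) left of WT (blue), lines at the means of 3 libraries. The means of Mir1291 are 56.9 CPM in KO and 59.9 CPM in WT libraries, and all values of the others lie below 8 CPM. The genotypes are apart with no overlap for Mir1843a alone.

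By context, hairpin regions that overlap a guide RNA were more often detected and had higher levels than those in plain introns. At such places reads of the guide RNA itself cannot be told apart from reads of the miRNA. Of 10 annotated miRNAs that overlap a snoRNA or scaRNA all 10 were listed, against 84 of 362 (23.2%) that lie wholly in an intron and touch no exon. None overlapped an snRNA or rRNA gene of GENCODE. Overlap with the precursor of rRNA (pre-rRNA) could not be checked, because the sources used here hold no sequence of it. The expression filter was passed by 7 of 10 and by 7 of 84, and 8 of 10 and 11 of 84 had reads in every library. At the low end, 1 of 10 and 55 of 84 had 3 reads or fewer in all. Exonic members had 55 of 173 annotated ones listed and intergenic members 17 of 94.

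Median levels showed the same order. The median was 6.82 CPM per kilobase for the 10 overlapping miRNAs and 0.101 CPM per kilobase for the 84 in plain introns, with 0.109 for the 55 exonic and 0.239 for the 17 intergenic ones. Their ranges overlapped, from 0.104 to 499 and from 0.0284 to 35.7 CPM per kilobase for the first pair. Median lengths were close, at 71.5 and 71 nt. No test was made over members, because their reads are not independent samples of a condition.

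Summed over members, the overlapping class exceeded the plain-intron class in every library. The overlapping miRNAs had 6.65 to 8.68 times the summed CPM of the plain-intron ones in KO libraries and 4.76 to 6.72 times in WT libraries. Without Mir1291 the ratio was 0.731 to 0.925 in KO libraries and 0.441 to 0.718 in WT libraries. Without the most abundant member of each class, Mir1291 and Mir3473f, it was 1.13 to 1.83 in KO libraries and 1.12 to 1.30 in WT libraries, a comparison chosen after the values were seen. The side of 1 on which the ratio lay thus differed with which members were left out.

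**Figure D3:**
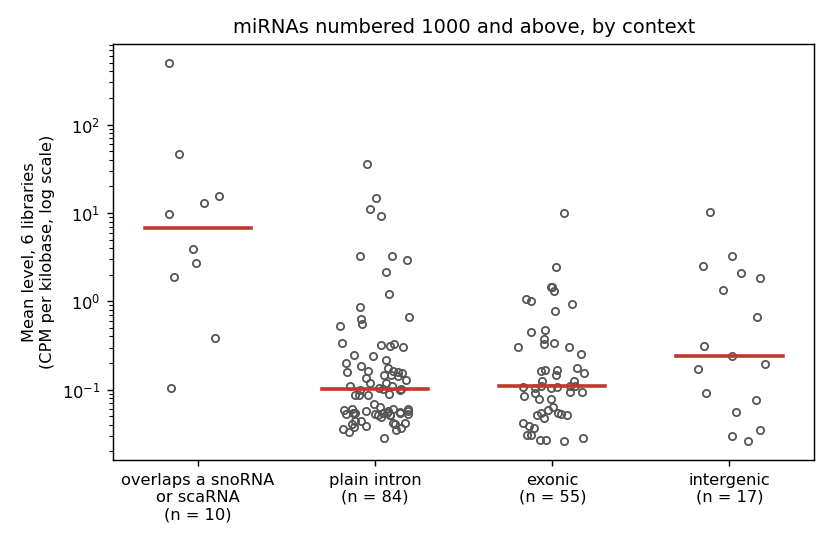
Mean level over the 6 libraries (CPM per kilobase, log scale) of each of the 166 late-numbered miRNAs, grouped by genomic context, 1 circle per miRNA, red lines at the medians. The 10 that overlap a snoRNA or scaRNA have a median of 6.82, against 0.101 for the 84 in plain introns.

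Mir1291, in an intron of Kansl2 (a subunit of the NSL histone acetyltransferase complex) at chromosome 15, 98519762 to 98519878, was counted almost exactly as often as the snoRNA it overlaps. In humans miR-1291 is known to be cut from SNORA34, and whether it is cut from Snora34 in these cells was not tested. Mir1291 had KO reads of 2389, 3144 and 2880, against WT reads of 3508, 2598 and 2876. Snora34 had KO reads of 2355, 2888 and 3120, against WT reads of 3512, 2553 and 2996. Of the reads counted to either feature, Mir1291 held 49.96% over the 6 libraries (95% exact binomial interval 49.4% to 50.5%) and 48.0% to 52.1% in single libraries. The genotypes overlapped, at 56.9 ± 6.6 CPM for KO against 59.9 ± 5.1 CPM for WT (mean and SD of 3 libraries each). Its log2 fold change was -0.01 (SE 0.18, adjusted p = 0.989 by edgeR's quasi-likelihood test), and that of Snora34 was -0.03 (SE 0.18, adjusted p = 0.971). The sources used here do not say how a read matching both features was assigned, so the counts of the pair are uncertain singly.

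Another 3 late-numbered miRNAs shared their place evenly with a listed feature, in these cases one on the opposite strand. Mir3074-1 (chromosome 13, 63301199 to 63301283, in an intron of the Fanconi anaemia gene Fancc and an exon of the protein-coding gene 2010111I01Rik on the opposite strand) lies opposite Mir24-1, and Mir3074-2 (chromosome 8, 84208825 to 84208907, with no host annotated) opposite Mir24-2. The mature strands are complementary over a run of 20 bases, as their sequences show (5′ to 3′, RefSeq, seeds in capitals).
miR-3074-5p: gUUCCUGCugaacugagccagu
miR-24-3p: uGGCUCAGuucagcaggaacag

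The late-numbered strand held 50.2% of the reads of Mir3074-1 and Mir24-1 (interval 45.7% to 54.7%, 36.0% to 59.5% in single libraries). It held 49.5% of those of Mir3074-2 and Mir24-2 (45.1% to 54.0%, 43.2% to 53.6% in single libraries). For Mir3107, in an intron of the non-coding gene Gm15816, opposite Mir486, an erythroid miRNA in an intron of the red cell ankyrin gene Ank1, the share was 50.1% (45.6% to 54.6%, 42.3% to 58.3% in single libraries). Without a stated strand setting, reads of these opposite features cannot be told apart, and the hairpins of Mir3074-1 and Mir3074-2 are themselves 83.9% identical.

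Other shared places were uneven. Mir3068 lies in an exon of the long non-coding RNA Gm29362 and in an intron of the demethylase gene Alkbh1, both on its strand. Mir3068 held 27.9% of the reads counted to it and to the snoRNA of the same name (interval 23.0% to 33.1%). In single libraries its share was 17.8% to 32.8%. Mir1949 held 2.01% of the reads of its pair (0.870% to 3.91%, 0% to 12.5% in single libraries). Mir5121 held 0.267% of the reads of its pair (0.239% to 0.297%, 0.187% to 0.379% in single libraries). Mir5121 had KO reads of 75, 41 and 48 and WT reads of 46, 61 and 68. Snord33 had KO reads of 23165, 18977 and 18574 and WT reads of 24581, 16035 and 25444. The genotypes of Mir5121 overlapped (log2 fold change -0.01 with SE 0.37, edgeR adjusted p = 0.994). A place shared on the same strand did not by itself go with equal counts.

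**Figure D4:**
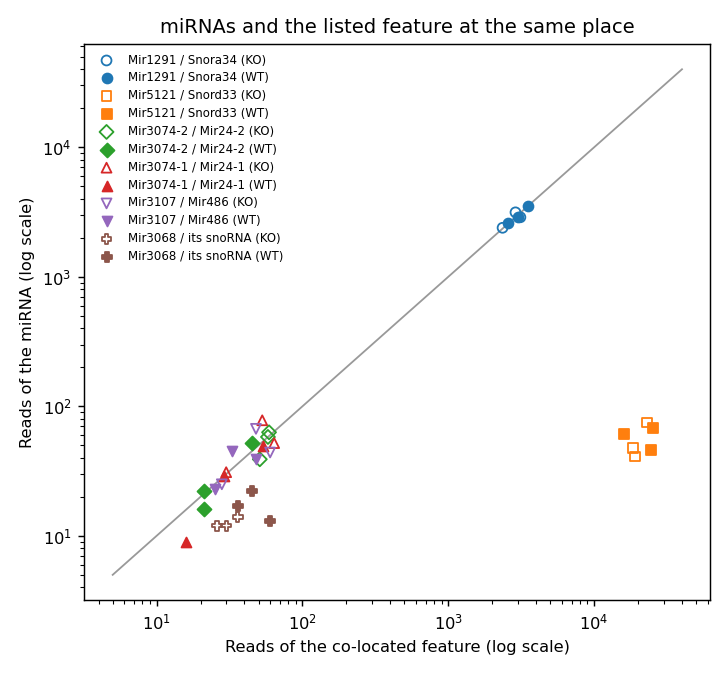
Reads of 6 late-numbered miRNAs (vertical, log scale) against reads of the listed feature at the same place (horizontal, log scale), 1 symbol per library, KO open and WT filled, with a line of equal counts. Mir1291, both Mir3074 members and Mir3107 lie along the line, while Mir3068 and Mir5121 lie below it.

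The other 5 overlapped RNAs were of type scaRNA, and the tables hold no feature of that type. The miRNA was therefore the only listed feature at those places: Mir1839, Mir1843a, Mir1843b, Mir3069 and Mir6516. Reads of the scaRNA and of the miRNA cannot be told apart there. Mir1839 (chromosome 7, 81529916 to 81529988, in an exon of the long non-coding RNA 2900076A07Rik) was counted 111, 243 and 184 times in KO libraries, against 102, 195 and 161 times in WT libraries, at 3.62 ± 1.22 CPM for KO and 3.13 ± 1.19 CPM for WT (SD of 3 libraries each). The genotypes overlapped, and replicate 1 was the lowest in each. The log2 fold change was 0.27 (SE 0.41, adjusted p = 0.838 by edgeR).

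Mir1843a and Mir1843b overlap related scaRNAs, Scarna3b in the ubiquitin ligase adaptor gene Dcaf5 and Scarna3a in the ubiquitin ligase gene Cop1. The scaRNAs are 85.7% identical. Mir1843a also lies in an exon of CT030161.1, a gene of type sense intronic on the same strand. Mir1843a had 26, 20 and 29 reads across KO libraries and 43, 38 and 32 across WT libraries. Each KO library had a lower CPM than each WT library (0.512 ± 0.116 CPM for KO and 0.758 ± 0.112 CPM for WT), and no other late-numbered miRNA that passed the filter had separate genotypes. Among all 624 tested features 15.2% had separate genotypes, 12.5% with KO lower and 2.72% with KO higher, so 1 of 18 is not above the background. The difference was not called (log2 fold change -0.50 with SE 0.29, edgeR adjusted p = 0.730). Mir1843b had KO reads of 40, 54 and 29 and WT reads of 44, 39 and 47, with overlapping genotypes and a log2 fold change of 0.0021 (SE 0.31, adjusted p = 0.9997 by edgeR).

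The remaining overlapping miRNAs were rare. Mir6516, in the snoRNA host gene Snhg20, was counted 7, 24 and 14 times in KO libraries, against 19, 17 and 9 times in WT libraries. Mir3068 had 14, 12 and 12 reads across KO libraries and 13, 22 and 17 across WT libraries. The genotypes of both overlapped, and neither was called (log2 fold changes 0.07 with SE 0.50 and -0.38 with SE 0.35, adjusted p = 0.971 and 0.759 by edgeR). Below the expression filter, Mir3069, in an intron of Snhg10, had KO reads of 12, 5 and 3 and WT reads of 7, 3 and 7. Mir1949 had 5 reads over the KO libraries and 3 over the WT libraries, and Mir3084-1, in Cbwd1, had 1 in each genotype.

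Among miRNAs in plain introns Mir3473f was the most abundant, and it had the smallest p of all late-numbered miRNAs. Its sequence shares 25 bases with 1 other listed feature, and the treatment of reads with several matches is not given. Mir3473f lies in an intron of Bcl2, an inhibitor of apoptosis (chromosome 1, 106546496 to 106546631). It was counted 152, 179 and 210 times in KO libraries, against 378, 310 and 214 times in WT libraries, at 3.68 ± 0.68 CPM for KO and 6.05 ± 1.59 CPM for WT (SD of 3 libraries each). The lowest WT library, replicate 3 with 214 reads, fell within the range of the KO libraries in CPM. The log2 fold change was -0.66 (SE 0.29), with an unadjusted p of 0.0588 and an adjusted p of 0.710 by edgeR. Mir3473d, with a hairpin of 81 nt where that of Mir3473f has 136 nt, lies in the RNA helicase gene Ddx19b and had 12, 6 and 10 reads across KO libraries and 17, 16 and 9 across WT libraries (log2 fold change -0.49 with SE 0.42, edgeR adjusted p = 0.759).

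Mature sequences of 3 named plain-intron members, Mir3473f, Mir1198 and Mir1964, are shown because their seeds all differ (5′ to 3′, RefSeq, seeds in capitals). Mir3107 is named only. For the mirtron-like Mir1981 the whole hairpin is given, with both mature arms in capitals.
miR-3473f: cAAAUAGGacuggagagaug
miR-1198-5p: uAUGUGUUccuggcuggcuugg
miR-1198-3p: aAGCUAGCcucuaacucauggc
miR-1964-5p: aGCUGGAGcacaaaagccggug
miR-1964-3p: cCGACUUCugggcuccggcuuu
Mir1981 hairpin, chromosome 1, 184822407 to 184822488, minus strand: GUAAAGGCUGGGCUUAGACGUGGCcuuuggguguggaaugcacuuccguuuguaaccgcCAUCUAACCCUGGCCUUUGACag

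The Mir1981 hairpin is a whole intron of Marc2, a mitochondrial reductase gene: its 82 nt begin and end exactly at the splice sites, with GU and AG at its ends. It had KO reads of 24, 61 and 49 and WT reads of 38, 45 and 50, which overlapped (log2 fold change 0.07 with SE 0.38, edgeR adjusted p = 0.964). An end within 10 nt of a splice site of the host, a measure chosen after the data were seen, was found for 63 of the 166 members, and both ends for 6. The share was 6.98% of the 43 members numbered 1187 to 1983, 31.0% of the 29 numbered 3057 to 3965 and 26.7% of the 15 numbered 5098 to 5624. It was 75.9% of the 29 members numbered 6236 to 6996, and 25 of the 50 numbered 7002 to 8120 had such an end. In plain introns the 39 members with such an end had a median of 1 read and the 45 without it a median of 3 reads. The other 5 members with both ends at splice sites were rarer than Mir1981, the next being Mir7068 in the spliceosome-associated gene Cherp with 32 reads in all.

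Mir1198, in an intron of the endosomal trafficking gene Gripap1 on chromosome X, was counted 38, 138 and 71 times in KO libraries, against 90, 126 and 67 times in WT libraries. The genotypes overlapped (log2 fold change -0.16 with SE 0.51, edgeR adjusted p = 0.942). Mir1964, in the zinc finger gene Zfp84, had 4, 16 and 14 reads across KO libraries and 16, 18 and 13 across WT libraries (log2 fold change -0.40 with SE 0.48, edgeR adjusted p = 0.803). Mir7023, in an intron of the PI3-kinase delta gene Pik3cd, had the lowest estimate of all, with KO reads of 15, 1 and 5 and WT reads of 7, 11 and 22 (log2 fold change -0.82 with SE 0.83, edgeR adjusted p = 0.779). KO replicate 1 lay above WT replicates 1 and 2, and the other KO libraries lay below all WT libraries. The log2 fold change of Mir7023 was -1.98 without KO replicate 1, -0.23 without KO replicate 2 and -0.20 without WT replicate 3.

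The highest estimates belonged to the Mir3074 pair, opposite the Mir24 copies. Mir3074-1 had KO reads of 31, 52 and 78 and WT reads of 9, 49 and 29 (log2 fold change 0.91 with SE 0.65, edgeR adjusted p = 0.733). Mir3074-2 was counted 39, 63 and 58 times in KO libraries, against 16, 52 and 22 times in WT libraries (0.86, SE 0.52, adjusted p = 0.730). In both, WT replicate 2 lay within the KO range and the other WT libraries lay below it. Without WT replicate 2 the log2 fold changes were 1.68 for Mir3074-1 and 1.69 for Mir3074-2 (unadjusted p = 0.0466 and 0.0054, both adjusted p = 0.489 by edgeR), and with any 1 library left out the lowest were 0.55 and 0.62. Mir24-1 and Mir24-2 had log2 fold changes of 0.59 (SE 0.54, adjusted p = 0.759) and 0.99 (SE 0.42, adjusted p = 0.710). Mir3107 had 25, 67 and 44 reads across KO libraries and 23, 45 and 39 across WT libraries (0.39, SE 0.46, adjusted p = 0.803 by edgeR), beside 0.42 (SE 0.39) for Mir486. Mir1983, which has no annotated host, had KO reads of 36, 3 and 11 and WT reads of 20, 25 and 33 (-0.53, SE 0.77, adjusted p = 0.838 by edgeR). KO replicate 1 was the highest of its 6 libraries and KO replicate 2 the lowest. Mir1928, also without a host, had KO reads of 4, 12 and 11 and WT reads of 11, 7 and 5, which overlapped (0.31, SE 0.48, adjusted p = 0.849 by edgeR).

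Across all late-numbered miRNAs no difference between KO and WT passed the test. Of the 18 that passed the filter, edgeR's quasi-likelihood test called 0 at an adjusted p under 0.05, and DESeq2 also called 0. The background was 0.16% of the 624 tested features. At an unadjusted p under 0.05 there were 0 of 18, where 6.41% of all tested features were found. The estimates were higher in the KO libraries for 8 and lower for 10, and the median log2 fold change was -0.01 for these 18 and -0.08 for all tested features. With RLE size factors 10 of 18 were higher and the medians were 0.10 and 0.02, and with library size alone 7 of 18 were higher with medians of -0.08 and -0.16. SEs ran from 0.18 for Mir1291 to 0.83 for Mir7023.

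By context, 3 of 7 overlapping and 2 of 7 plain-intron miRNAs that passed the filter had higher estimates in the KO libraries, with median log2 fold changes of -0.01 and -0.40. Summed, the overlapping miRNAs reached 63.8 ± 7.5 CPM in KO against 66.6 ± 3.9 CPM in WT libraries, and without Mir1291 they reached 6.81 ± 0.93 CPM in KO against 6.73 ± 1.57 CPM in WT libraries. Those in plain introns reached 8.66 ± 2.05 CPM in KO against 11.6 ± 2.2 CPM in WT libraries, and without Mir3473f they reached 4.98 ± 1.81 CPM in KO against 5.58 ± 1.22 CPM in WT libraries. Each of these sums overlapped between the genotypes. miRNAs numbered below 1000, listed beside them, had higher estimates in the KO libraries for 107 of 120 that passed the filter, with a median log2 fold change of 0.46 and 0 called. Whether these lists differ was not tested, and the 3 late-numbered miRNAs opposite Mir24 or Mir486 all had estimates above 0.

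**Figure D5:**
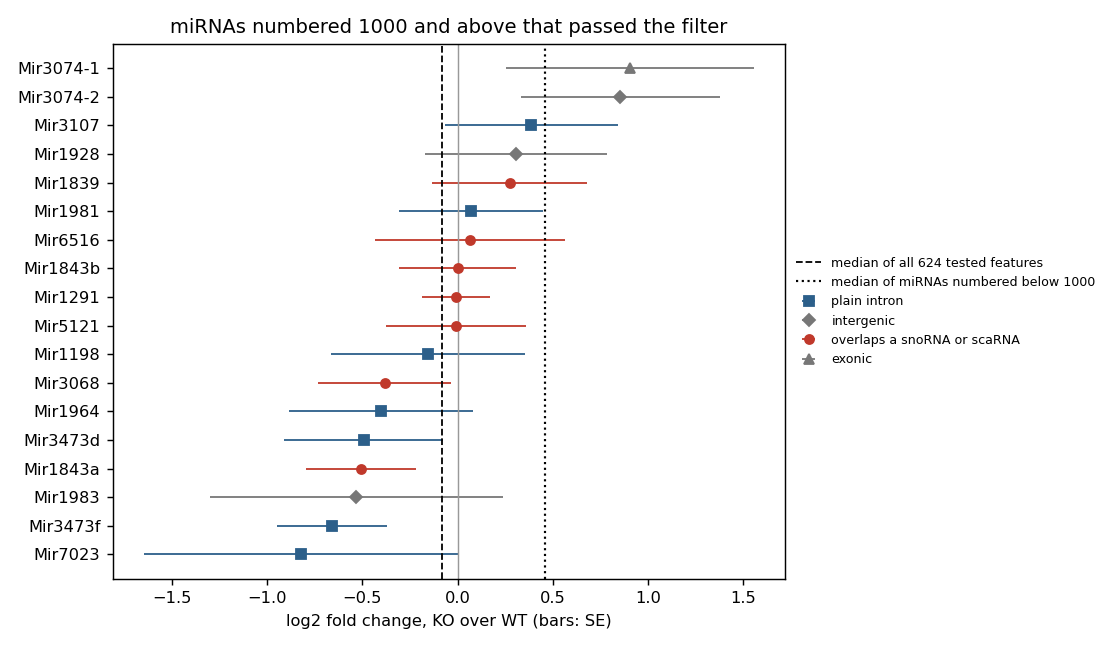
Log2 fold change KO over WT with its SE for the 18 late-numbered miRNAs that passed the filter, marked by genomic context. The dashed line is the median of all 624 tested features (-0.08) and the dotted line that of 120 miRNAs numbered below 1000 (0.46). The highest estimates are those of Mir3074-1 and Mir3074-2 and the lowest is that of Mir7023.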

How the data were processed

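Small RNA libraries of bone marrow cells were sequenced as 3 KO and 3 WT libraries, grouped by title. The submitters' processing notes name Trimmomatic 0.38, Bowtie2 2.3.4.1 and the build GRCm38. The sources used here do not give the counting tool, annotation, strand setting or treatment of reads with several matches. The authors deposited raw read counts per feature, named by position, with no features at 0, so a missing feature was set to 0.

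Of 1823 features 1822 matched a GENCODE M21 gene at the same start and end. Contexts were taken from GENCODE with a minimum overlap of 1 nt on either strand. Each miRNA had 1 context, in the order overlapping small RNA (snoRNA, scaRNA, snRNA, rRNA), exon, plain intron, intergenic. For the shared-sequence check, 22 late-numbered miRNAs shared 25 bases with another listed feature (70 features at most, for Mir3470b). RefSeq (GRCm38.p6) gave mature sequences for 152 of the 166.

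The counts were tested with edgeR 4.0.16 in R 4.3.3 (quasi-likelihood, TMM, minimum count 10 and minimum total count 15, no covariate, two-sided, Benjamini-Hochberg over all 624 tested features, threshold 0.05). SEs are approximate, |log2 fold change| over the root of F. Alternatives were DESeq2 1.42.0, other scalings and filters, summed copies, a replicate block and leaving out each library. Intervals are 95% exact binomial.

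The miRNAs, the contexts and the lists were chosen with earlier results of these data known. Named are the miRNAs that overlap a small RNA, the 15 with the highest mean CPM, any with an unadjusted p under 0.05, and those with the highest and lowest log2 fold change. Mir3473d, Mir1928, Mir7068, Mir1298, Mir6236 and Mir6240 were named after their values were seen.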

Additional observations from a re-analysis of the deposited data

How the results depend on the processing

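No late-numbered miRNA was called in any of 14 alternative fits, which changed the scaling, the filter, the tool, the summing of copies, the block or the libraries. At an unadjusted p under 0.05 there were 2 of 166 without a filter, 3 when KO replicate 1 was left out, 2 and 1 when WT replicates 2 and 3 were, and 0 in the others. Of 214 alternative log2 fold changes of 16 named miRNAs, 183 kept their direction, and the smallest adjusted p was 0.215. Values that changed sign were small: Mir1291 had 0.10 with RLE size factors, 0.048 without a filter, 0.065 with at least 50 counts in 3 libraries, 0.10 with DESeq2 and 0.054 with copies summed. Mir5121 had 0.093, 0.043, 0.053, 0.093 and 0.054 in these settings. Mir1843b had -0.072 with library size alone and -0.0017 with co-located features summed, chosen once the values were known. With 1 library left out, the log2 fold change ran from 0.0029 to 0.16 for Mir1291, -0.64 to 0.29 for Mir1198, -0.26 to 0.25 for Mir5121, -0.11 to 0.45 for Mir1981, -0.15 to 0.25 for Mir1843b, -1.74 to 0.031 for Mir1983, -0.34 to 0.48 for Mir6516 and -0.62 to 0.073 for Mir1964. It kept its sign but ran from 0.55 to 1.68 for Mir3074-1, 0.62 to 1.69 for Mir3074-2, 0.11 to 0.76 for Mir3107 and -1.98 to -0.20 for Mir7023. The log2 ratio of summed levels, KO over WT, was -0.10 for all members and 0.072 with RLE-scaled CPM, and -0.06 for the overlapping ones and 0.11 with RLE-scaled CPM. For plain introns it was -0.42, and -0.16 without Mir3473f. The cause was not tested. With 1 library left out the ratio ran from -0.16 to 0.0023 for all members, -0.12 to 0.03 for the overlapping ones and -0.57 to -0.24 for plain introns. With the replicate number as a block the call count was 0 and Mir1843b had -0.033. The correlation of same-numbered libraries, as deviations from the group means, was -0.13, 0.40 and -0.36. Between libraries of different numbers it ran from -0.46 to 0.59. With 3 libraries per genotype these values cannot decide whether the numbers pair the libraries. Depth limits the rest: 98 of the 166 had 3 reads or fewer in all libraries, too few for any fold change.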

Other observations

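Some rare late-numbered miRNAs were high in a single library. Mir1298, in an intron of the serotonin receptor gene Htr2c, had 16 reads in KO replicate 2 and none in the other 5 libraries. Mir6236 and Mir6240, with no annotated host, had 34 and 29 reads in WT replicate 2, against 2 to 13 and 0 to 6 in the other libraries. The 45S pre-rRNA feature had 32555 to 38822 CPM in the KO libraries and 45937 to 50993 CPM in the WT libraries, highest in WT replicate 2. The part of that library in these values was not tested. Whether Mir6236 or Mir6240 overlaps the 45S pre-rRNA could not be checked, because the sources used here hold no sequence of it.

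Few mature sequences shared a seed. Among 227 distinct seeds of the late-numbered miRNAs, 9 occurred in more than 1 of them. miR-7023-3p and miR-7068-3p, whose hairpins have an end within 10 nt of a splice site, were such a pair, with 61 and 32 reads in all for their hairpins.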
